A study of Mus musculus with 23 samples.

Results

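Tuft cell markers are described here in mouse intestinal epithelium, across sorted stem cells, wild-type villus and villus that lacks Eed. The set holds 9 genes: Dclk1, Pou2f3, Trpm5, Gfi1b, Ptgs1, Avil, Il25, Rgs13 and Sh2d6. They were matched by gene name in the authors' 2 deposited tables, which list 22517 named genes. A match was found for 8 of the 9, and the authors tested all 8 in both tables. Sh2d6, an adaptor-like gene with an SH2 domain, was not matched by name and was not analysed here.

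RNA was sequenced in 3 groups of 3 libraries, all from mice of mixed B6;129 background given 1 to 2 mg tamoxifen on 5 days, with tissue from the proximal 1/3 of the intestine. Wild-type villus is epithelium of EedF/F mice with no Cre, so its cells carry the floxed alleles without the recombinase. Eed-null villus is epithelium of EedF/F; Villin-CRE mice, in which Cre is driven by the promoter of the epithelial gene villin. The intestinal stem cells (ISC) came from Eed+/+; Lgr5-EGFP-IRES-CREERT2 mice and were sorted for high GFP after enzymatic dissociation of crypts. Genotype, crypt origin and handling therefore differ together between ISC and villus and cannot be told apart, and the ages of the mice are not given in the sources used here. Each table gives 1 RPKM value (a read count scaled to gene length and library size) per group, so no value per library and no spread between libraries can be shown. Error is therefore judged from the authors' q, their p adjusted over the genes tested, and calls are made at q of 0.05 or less. The 2 tables were scaled separately, and villus values of the first are 1.16-fold those of the second, so each comparison is made within its own table. Both comparisons use the same wild-type villus libraries and are not independent of each other.

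Tuft cells are rare chemosensory cells scattered through the gut epithelium. They detect luminal metabolites through a taste-like cascade of receptors, G proteins, phospholipase and the cation channel Trpm5, and they release interleukin 25, eicosanoids and acetylcholine. Interleukin 25 acts on group 2 innate lymphoid cells, whose interleukin 13 increases goblet and tuft cells in turn. The lineage depends on the transcription factor Pou2f3. Eed, the gene deleted here, encodes a core subunit of Polycomb repressive complex 2, which places the repressive histone mark H3K27me3.

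Eed itself had 3.00 RPKM in Eed-null villus versus 9.17 RPKM in its wild-type control, a 3.05-fold difference (the authors' deposited table gives q = 6.29e-06). Some Eed reads thus remained in the villus labelled Eed-null; which exons they come from cannot be read from a value per gene. The identity of the groups was also visible in the stem cell marker Lgr5, at 18.3 RPKM in ISC but 0.607 RPKM in villus, and in the enterocyte phosphatase Alpi, with 15.8 and 1146 RPKM. These are bulk samples, in which fewer cells of a type and less RNA per cell cannot be told apart.

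All 8 markers had higher values in wild-type villus than in ISC, and none was distinguishable between Eed-null and wild-type villus by the authors' q. Between villus and ISC, 7 of the 8 were called higher in villus, against 30.5% of all 13007 genes tested, and none was called lower, against 32.3% (62.8% in either direction). At an unadjusted p under 0.05 the count was also 7 of 8, against 66% of tested genes. The median villus to ISC ratio of the 8 was 5.15. Between Eed-null and wild-type villus, 0 of 8 were called by the authors' q, against 11.4% of all 12525 genes tested. The processing notes name Cuffdiff, without stating its role. At an unadjusted p under 0.05, 1 of the 8 passed, against 21.1% of tested genes.

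**Figure D1:**
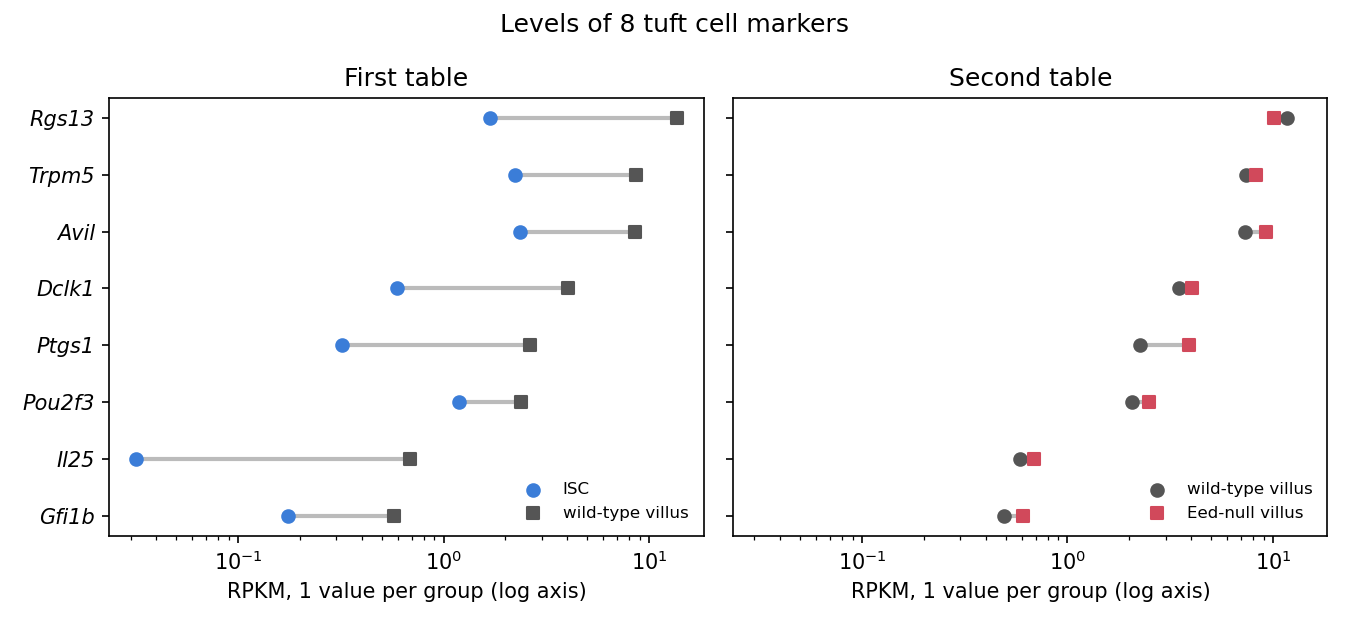
RPKM of the 8 matched tuft cell markers on a log axis, 1 value per group, with ISC and wild-type villus from the first table on the left and wild-type and Eed-null villus from the second table on the right. Every marker lies to the right of its ISC value in wild-type villus (Rgs13 at 13.6 against 1.69 RPKM), whereas the 2 villus groups lie closer together, from Trpm5 at 8.27 and 7.43 RPKM to Ptgs1, the widest apart, at 3.88 and 2.26 RPKM.

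Because RPKM is scaled by gene length, levels can be set beside each other. In wild-type villus of the first table the order of levels was Rgs13, Trpm5, Avil, Dclk1, Ptgs1, Pou2f3, Il25 and Gfi1b, from 13.6 down to 0.573 RPKM. Trpm5 and Avil stood side by side at 8.63 and 8.51 RPKM, and so did Ptgs1 and Pou2f3 at 2.63 and 2.39 RPKM. Without library values it cannot be said which neighbours in this order differ beyond their spread. Rgs13 exceeded 64.0% of tested genes in wild-type villus, Dclk1 39.1% and Gfi1b 12.9%, so most of these markers belong to the lower part of the villus transcriptome. In ISC the order changed: Avil was highest at 2.36 RPKM, followed by Trpm5, Rgs13, Pou2f3, Dclk1, Ptgs1, Gfi1b and Il25.

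The transcription factors had the smallest ratios and the highest q of the 8 between villus and ISC. Pou2f3, the POU-domain factor that specifies tuft cells (chr9:42932021-43013838 on build mm9, as the files list it), stood at 2.39 RPKM in wild-type villus, compared with 1.18 RPKM in ISC. The ratio was 2.02 (the authors' deposited table gives q = 0.0360). In the second table Pou2f3 had 2.49 RPKM in Eed-null villus versus 2.06 RPKM in its wild-type control (the authors' deposited table gives q = 0.762). Pou2f3 was the marker with the highest ISC level relative to villus. Gfi1b, a zinc-finger repressor of tuft cells and of the red cell and platelet lineages (chr2:28464969-28477502), stood at 0.573 RPKM in villus, compared with 0.175 RPKM in ISC. It was not called (the authors' deposited table gives q = 0.0776). Eed-null and wild-type villus had 0.609 and 0.493 RPKM of Gfi1b (the authors' deposited table gives q = 0.903).

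The signalling and structural markers were the most abundant. Trpm5, the calcium-activated cation channel of the taste cascade (chr7:150257433-150280547), stood at 8.63 RPKM in wild-type villus, compared with 2.23 RPKM in ISC, a 3.87-fold difference (the authors' deposited table gives q = 1.50e-10). Its level was 8.27 RPKM in Eed-null villus versus 7.43 RPKM in its wild-type control of the second table. Rgs13, a regulator that ends G protein signalling (chr1:145985796-146024502), stood at 13.6 RPKM in wild-type villus, compared with 1.69 RPKM in ISC, an 8.07-fold difference (the authors' deposited table gives q = 2.50e-11). Rgs13 alone among the 8 had a lower value without Eed, 10.1 against 11.7 RPKM, but this did not pass the authors' test. The q was 0.777 for Rgs13 and 0.826 for Trpm5 in the authors' deposited table of that comparison.

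Dclk1, a doublecortin-like kinase that binds microtubules and is a widely used tuft cell marker (chr3:55046447-55342990), stood at 4.04 RPKM in wild-type villus, compared with 0.591 RPKM in ISC. The difference was 6.85-fold (the authors' deposited table gives q = 1.05e-10). Eed-null villus had 4.06 RPKM of Dclk1 against 3.48 RPKM in wild-type villus (the authors' deposited table gives q = 0.788). Avil, the actin-bundling protein advillin of the tuft microvilli (chr10:126437764-126458050), stood at 8.51 RPKM in wild-type villus, compared with 2.36 RPKM in ISC. The difference was 3.61-fold (the authors' deposited table gives q = 3.98e-08). In the second table Avil had 9.29 RPKM in Eed-null villus versus 7.33 RPKM in its wild-type control (the authors' deposited table gives q = 0.514).

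The effector genes showed the largest ratios between villus and ISC. Ptgs1, the constitutive cyclooxygenase that starts prostaglandin synthesis (chr2:36085945-36107789), stood at 2.63 RPKM in wild-type villus, compared with 0.321 RPKM in ISC. The difference was 8.20-fold (the authors' deposited table gives q = 4.07e-08). Ptgs1 was also the marker with the largest difference in Eed-null villus, at 3.88 against 2.26 RPKM. That 1.72-fold ratio had p = 0.0156 before and q = 0.108 after adjustment in the authors' deposited table, and was not called. Il25, the tuft cell cytokine (chr14:55551531-55554673), stood at 0.685 RPKM in wild-type villus, compared with 0.0321 RPKM in ISC (the authors' deposited table gives q = 0.00408). Its 21.4-fold ratio rests on a very low ISC value. Il25 had 0.684 RPKM in Eed-null villus versus 0.589 RPKM in its wild-type control (the authors' deposited table gives q = 0.917).

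How large a difference these values leave possible can be read from the deposited p, if it is taken as a two-sided normal test of the log2 ratio. No source used here states that form, so the 95% intervals that follow are implied ones. For Trpm5 in Eed-null against wild-type villus the implied interval ran from 0.793-fold to 1.56-fold, and for Rgs13 from 0.590-fold to 1.26-fold. For Dclk1 it ran from 0.770-fold to 1.77-fold, and for Pou2f3 from 0.754-fold to 1.94-fold. These 4 intervals, like that of Avil (0.894-fold to 1.80-fold), stop short of a 2-fold rise or fall. The interval of Ptgs1, from 1.11-fold to 2.66-fold, holds a 2-fold rise and lies above 1. All these intervals rest on the p before adjustment over the genes tested, and by the authors' q of 0.108 Ptgs1 was not called. Il25 and Gfi1b, the lowest markers, had the widest intervals, 0.530-fold to 2.54-fold and 0.449-fold to 3.40-fold. Between villus and ISC the intervals of 6 markers lie wholly above a 2-fold excess, the nearest being Avil at 2.33-fold to 5.59-fold. Pou2f3 (1.11-fold to 3.68-fold) and Gfi1b (0.993-fold to 10.9-fold) hold 2-fold, and Gfi1b also holds equality.

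**Figure D2:**
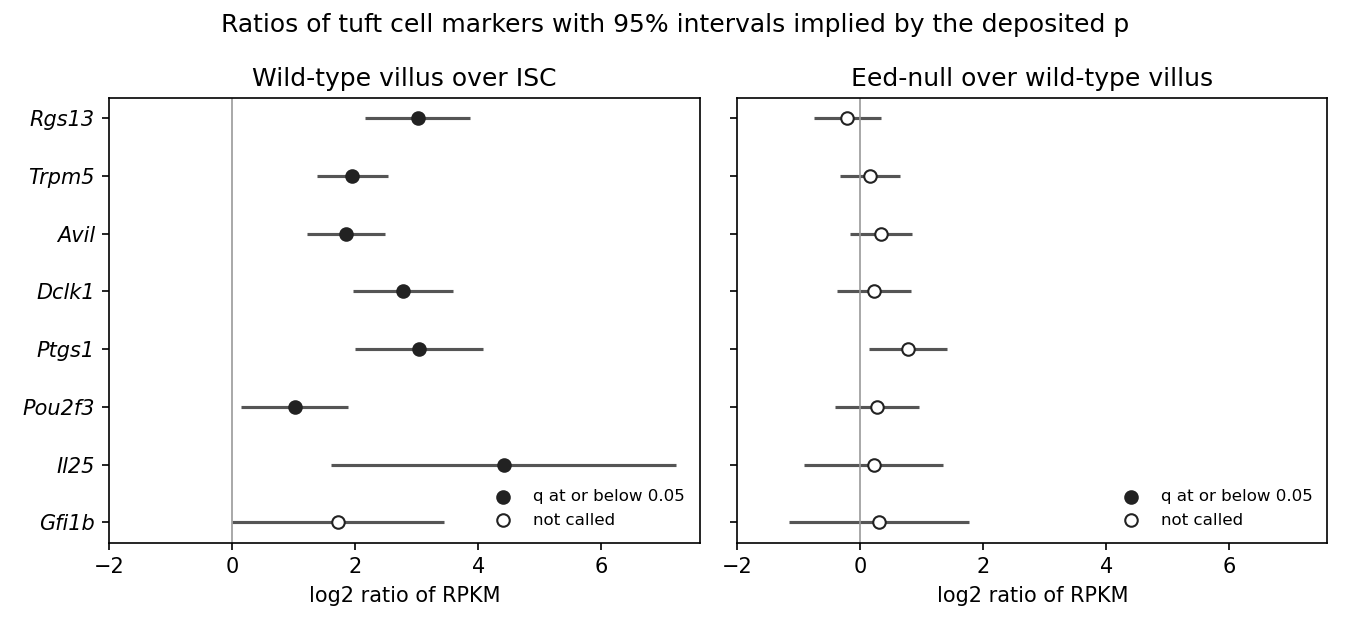
log2 ratio of RPKM for each marker (points) with the 95% interval implied by the deposited p under a normal test (lines), filled where q is at or below 0.05. Villus over ISC on the left lies above 0 for all 8 markers and 7 points are filled; Eed-null over wild-type villus on the right lies between -0.21 and 0.78 and no point is filled.

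On the scale of log2(RPKM + 1), which understates changes of low genes, the median difference of the 8 markers was 1.48 between villus and ISC, beside -0.06 over all tested genes. In Eed-null against wild-type villus it was 0.16, beside -0.06 over all tested genes, with higher values in 7 of the 8 markers. The summed RPKM of the 8 was 39.4 in Eed-null and 35.4 in wild-type villus, a ratio of 1.11. In that table the median log2 ratio of the 10003 tested genes at 1 RPKM or more in both villus groups was -0.10. With ISC placed on the scale of the second table, Eed-null villus exceeded ISC 2.45-fold for Pou2f3, 7.98-fold for Dclk1 and 14.1-fold for Ptgs1. The authors did not compare these groups, so the last ratios carry no test.

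**Figure D3:**
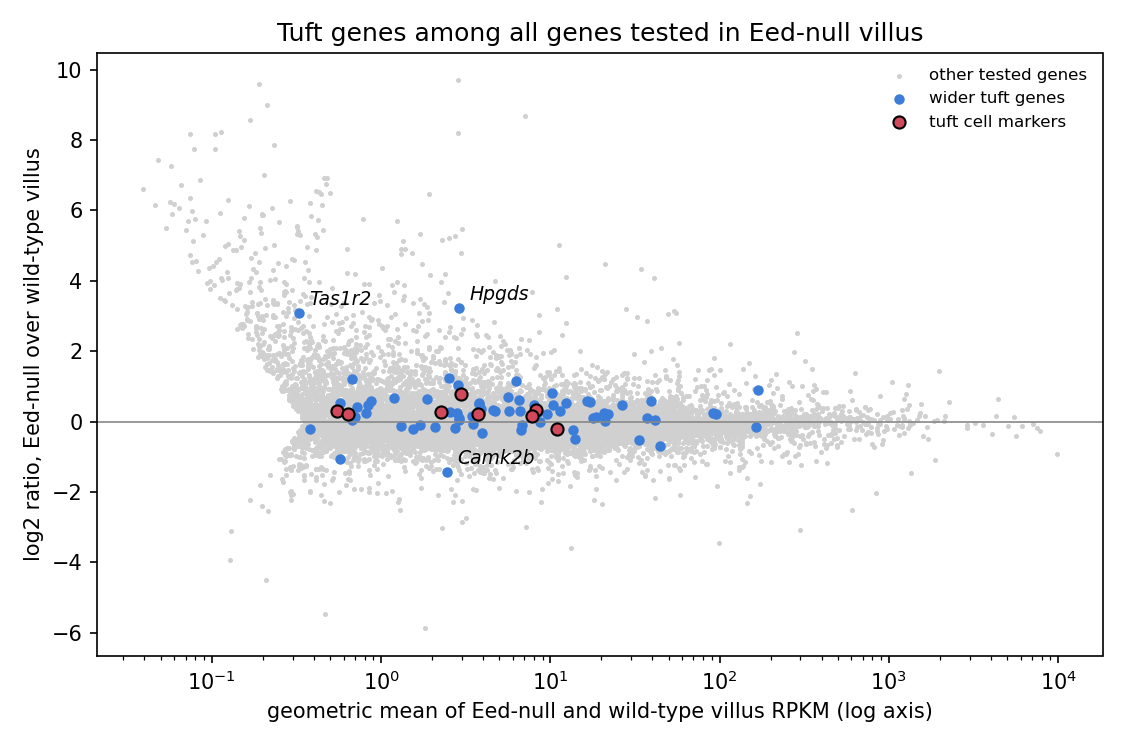
log2 ratio of Eed-null over wild-type villus RPKM against the geometric mean of both values on a log axis, for tested genes above 0 in both groups. The 8 tuft cell markers (red) lie between -0.21 and 0.78, and the wider tuft genes (blue) spread around them, with Hpgds at 3.22, Tas1r2 at 3.08 and Camk2b at -1.44 labelled.

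Promoter sequence is shown for the 3 most abundant markers, which were higher in villus together. RefSeq promoter windows of build GRCm38.p6 were matched for 7 of the 9 genes, Sh2d6 among them, with 2 windows for Dclk1. Of the windows, the 250 bases before the start site are printed 5′ to 3′ on the gene's strand. Capitals mark ATGCAAA on either strand, the first 7 letters of the octamer ATGCAAAT that POU factors bind.

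Avil, chr10:127000459-127000708, plus strand: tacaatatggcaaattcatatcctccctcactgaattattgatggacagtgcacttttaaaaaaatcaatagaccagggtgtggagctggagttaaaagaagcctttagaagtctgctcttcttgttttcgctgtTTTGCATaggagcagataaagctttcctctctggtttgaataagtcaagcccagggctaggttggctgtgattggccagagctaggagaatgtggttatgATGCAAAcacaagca

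Trpm5, chr7:143094643-143094892, minus strand: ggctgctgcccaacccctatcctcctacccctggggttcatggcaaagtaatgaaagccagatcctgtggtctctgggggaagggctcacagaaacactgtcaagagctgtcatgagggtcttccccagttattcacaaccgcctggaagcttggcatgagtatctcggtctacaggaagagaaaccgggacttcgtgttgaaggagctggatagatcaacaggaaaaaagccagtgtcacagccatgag

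Rgs13, chr1:144177373-144177622, minus strand: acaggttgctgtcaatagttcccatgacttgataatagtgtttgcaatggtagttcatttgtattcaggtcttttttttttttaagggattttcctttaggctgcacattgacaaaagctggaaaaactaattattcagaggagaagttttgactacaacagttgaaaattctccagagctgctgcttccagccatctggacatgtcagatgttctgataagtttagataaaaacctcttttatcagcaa

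Searched on both strands over the 300 bases of each window, the octamer ATGCAAAT, the looser ATGCNAAT that includes it, the GFI-type core AAATCAC and the TATA motif TATAAA matched none of the 8 marker windows. They matched 1.74%, 3.15%, 3.20% and 13.6% of all 32851 windows. The shorter ATGCAAA, chosen after the sequences were seen and contained in the octamer, was found in 4.63% of windows. Among the markers it matched the window of Avil alone, with 2 matches. One lies on the opposite strand from 115 to 109 bases before the start and the other on the gene's strand from 15 to 9 bases before it. A match is a string of letters and no evidence of binding, and its absence concerns these windows only.

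Most other genes of the tuft cell programme that were tested were also called higher in villus than in ISC. In Eed-null villus the share called was close to that of all tested genes. Of 83 further tuft genes in 5 lists, 82 were matched. Between villus and ISC 70 were tested, with 45 called in favour of villus and 8 in favour of ISC, against 30.5% and 32.3% of all tested genes. Between Eed-null and wild-type villus 69 were tested: 7 passed as higher and 2 as lower without Eed, against 7.9% and 3.46% of all tested genes, and 60 were not called. The median difference of log2(RPKM + 1) over the tested genes was 0.97 and 0.20. Many of these genes are also used outside tuft cells, so their values are not those of tuft cells alone.

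**Figure D4:**
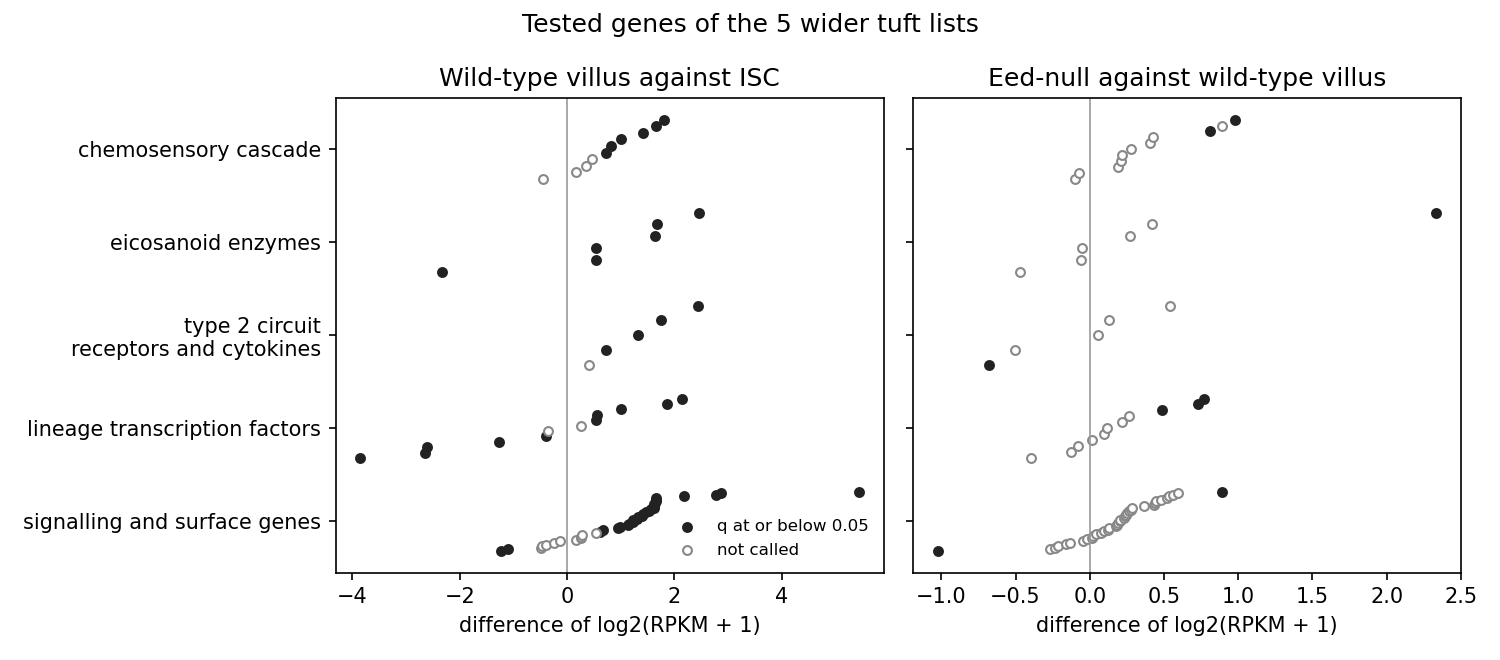
Difference of log2(RPKM + 1) for every tested gene of the 5 wider tuft lists, sorted within each list, filled where q is at or below 0.05; Il17rb stands in 2 lists. Most points on the left are filled and positive (45 of 70 genes called higher in villus), and most on the right are open (60 of 69 genes not called).

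In the chemosensory cascade, 6 of 10 tested genes were called higher in villus than in ISC, against 30.5% of all tested genes, and none lower. The succinate receptor Sucnr1 stood at 2.56 RPKM in villus, compared with 0.0201 RPKM in ISC, and the taste G protein gustducin, Gnat3, had 1.73 and 0.0231 RPKM. Their q were 1.86e-06 and 0.000150 in the authors' deposited table. The fatty acid receptor Ffar3 was 16.2-fold and the calcium channel of the endoplasmic reticulum Itpr2 2.77-fold higher in villus, both called in the authors' deposited table. In Eed-null villus, Sucnr1 had 1.98 against 2.20 RPKM and Gnat3 2.33 against 1.49 RPKM, neither called in the authors' deposited table. The 2 genes of this list called higher in Eed-null villus, of 11 tested and against 7.9% of all tested genes, were Tas1r2 and Pde2a. Tas1r2, the sweet taste receptor subunit, rose 8.44-fold from 0.113 to 0.953 RPKM (the authors' deposited table gives q = 5.48e-06). Tas1r2 and the vesicular acetylcholine transporter Slc18a3 are listed at 0 in ISC and were not tested there. Pde2a, a cyclic nucleotide phosphodiesterase, rose 2.21-fold (the authors' deposited table gives q = 0.0115), and it shares its locus entry with another gene, so its reads cannot be assigned with certainty.

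All 6 eicosanoid enzyme genes that were tested were called between villus and ISC, 5 of them higher in villus, against 62.8% of all tested genes called in either direction and 30.5% called higher. Ltc4s, the leukotriene C4 synthase, stood at 19.5 RPKM in villus, compared with 2.70 RPKM in ISC, and the 5-lipoxygenase Alox5 and its activating protein Alox5ap were 7.37-fold and 3.92-fold higher, all called in the authors' deposited table. Pla2g4a, the phospholipase that frees arachidonic acid, went the other way, from 14.3 RPKM in ISC down to 2.03 RPKM in villus. In Eed-null villus only Hpgds of the 6 was called, against 11.4% of all tested genes. Hpgds, the haematopoietic prostaglandin D synthase that acts downstream of Ptgs1, rose 9.33-fold from 0.943 to 8.80 RPKM, with q listed as 0 in the authors' deposited table. Ltc4s had 11.8 RPKM in Eed-null villus versus 16.7 RPKM in its wild-type control (the authors' deposited table gives q = 0.448). Ptgds, the other prostaglandin D synthase, is listed at 0 in Eed-null villus and had 0.0179 RPKM in wild-type villus, untested.

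Receptors of the type 2 circuit had measurable levels, while its lymphoid cytokines were listed at 0 in villus. Il17rb, a subunit of the interleukin 25 receptor, stood at 3.79 RPKM in villus, compared with 0.902 RPKM in ISC, and the interleukin 4 receptor Il4ra had 15.7 and 3.94 RPKM. Both were called higher in villus, as were Il13ra1 and Stat6. That made 4 of 5 tested genes in the authors' deposited table, against 30.5% of all tested genes. Il13ra1, a subunit of the interleukin 13 receptor, was the only gene of this list called in Eed-null villus, at 34.9 against 56.4 RPKM (the authors' deposited table gives q = 0.0262). It was 1 of 5 tested, called lower, against 3.46% of all tested genes. Il4, Il5, Il9 and Il13 are listed at 0 in both villus groups and were not tested. The depth per library is unknown, so no upper limit can be set for them.

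A list of genes of the epithelial type 2 response, made of goblet cell products and of gasdermin and Sprr2 genes that are not goblet cell markers, had 10 genes tested in Eed-null villus. Of these 6 were called higher, against 7.9% of all tested genes, and none lower: Retnlb, Ang4 and Muc2 among goblet cell products, and Gsdmc2, Gsdmc3 and Gsdmc4. Retnlb, an antibacterial goblet cell protein, rose 20.1-fold to 154 RPKM, and the gasdermin genes Gsdmc2 and Gsdmc4 rose 3.03-fold and 3.47-fold in the authors' deposited table. Clca3, a goblet cell secretory protein, had 1654 against 966 RPKM with q = 0.193, and Ang4, a Paneth and goblet cell ribonuclease, rose 2.05-fold (the authors' deposited table gives q = 0.00202). The general goblet cell list, which shares Retnlb, Ang4 and others with it, had 7 of 12 genes called higher, against the same 7.9%.

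Transcription factors outside the marker set went both ways: of 12 tested between villus and ISC, 5 were called in each direction, against 30.5% higher and 32.3% lower of all tested genes. Nrep, a gene of the list, is listed at 0 in wild-type villus. Higher in villus was 1810046K07Rik, a gene of the tuft lineage, with 8.12 against 1.06 RPKM. Higher in ISC were Ascl2, Sox4 and Sox9, factors of stem and progenitor cells, with ratios of 28.3, 8.96 and 8.31 in the authors' deposited table. In Eed-null villus 3 of 11 were called, all higher, against 7.9% higher and 3.46% lower of all tested genes. They were Sox9 at 4.10 against 1.99 RPKM, Atoh1 at 13.6 against 7.79 RPKM and Runx1 at 1.02 against 0.441 RPKM. Their q were 0.00523, 0.0233 and 0.0224 in the authors' deposited table. Atoh1 specifies the secretory lineages and Runx1 is best known from blood cells. By contrast 1810046K07Rik had 6.56 against 6.99 RPKM (the authors' deposited table gives q = 0.943).

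Among signalling and surface genes of tuft cells, 38 were tested between villus and ISC, with 26 called in favour of villus and 2 in favour of ISC, against 30.5% and 32.3% of all tested genes. The sialic acid-binding receptor Siglec5 had 8.89 against 0.435 RPKM, with q listed as 0 in the authors' deposited table. Cd300lf, a receptor that shares its locus entry with another gene, was 17.8-fold higher in villus. Espn, the actin bundler espin, was 54.8-fold higher, but enterocyte microvilli use it as well. In Eed-null villus 2 of 37 tested were called, 1 higher and 1 lower, against 7.9% and 3.46% of all tested genes. Camk2b, a calmodulin-dependent kinase, fell 2.72-fold from 4.05 to 1.49 RPKM, and Krt18, a keratin of many epithelial cells, rose 1.86-fold from 124 to 230 RPKM. Their q were 0.00192 and 0.00199 in the authors' deposited table. Siglec5 had 9.29 and 7.65 RPKM in Eed-null and wild-type villus (the authors' deposited table gives q = 0.649).

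Several of the markers are also expressed by cells that the epithelial preparation could hold, so the defining genes of those cells were read in the same tables. Most tested lymphocyte genes were, like the markers, higher in villus than in ISC. Of 14 T cell or innate lymphoid genes, 8 were tested and 7 called higher in villus, against 30.5% of all tested genes. The summed RPKM of the 14 genes was 112 in villus and 23.1 in ISC, a ratio of 4.84. The corresponding ratio of the 8 tuft markers was 4.79. Gzma, a granzyme of intraepithelial lymphocytes, had 69.6 and 14.2 RPKM, and Gzmb had 21.8 and 3.97 RPKM. These granzymes gave most of both lymphocyte sums, and a ratio of sums follows the most abundant genes of a list. In Eed-null villus the lymphocyte sum was lower, at 60.3 against 96.1 RPKM, while the tuft marker sum was 39.4 against 35.4 RPKM. Of 8 lymphocyte genes tested there, 1 was called higher (Gata3) and 1 lower (Gzmb), against 7.9% and 3.46% of all tested genes. Gata3 had 0.706 against 0.0416 RPKM. The other tested genes, Cd3d, Cd3e, Cd3g, Cd8a, Gzma, Gzmb and Itgae, all had lower values without Eed. The part of lymphocytes in these results was not tested.

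Platelets and their precursors express Ptgs1 and Gfi1b, and mast cells express Ptgs1, Rgs13 and Hpgds. Of 12 mast cell genes, 4 were tested in each table. None was called higher in villus than in ISC, against 30.5% of all tested genes, and Kit was called higher in ISC, against 32.3%. In Eed-null villus none was called in either direction, against 11.4%. The proteases Cma1 and Tpsab1 are listed at 0 in ISC and wild-type villus, and had 0.181 and 0.0111 RPKM in Eed-null villus. Gata2, a transcription factor of mast cells and other blood cells, had 0.178 RPKM in Eed-null villus and 0.00748 RPKM in wild-type villus, and the protease Tpsb2 had 0.283 and 0.0873 RPKM. None of these 4 was tested by the authors for significance in that comparison, and the part of mast cells in the rise of Hpgds was not tested. Other genes of the list had lower values in Eed-null than in wild-type villus: Mcpt1, at 1.34 against 1.95 RPKM, and Mcpt2, Mcpt4, Cpa3, Hdc and Ms4a2. Kit and Fcer1a had higher values there. The list summed to 6.21 RPKM in Eed-null villus versus 5.62 RPKM in its wild-type control, of which the receptor Kit gave 3.09 and 2.13 RPKM. Of 10 platelet genes 3 were tested in each table, and only Itga2b was called, 7.18-fold higher in villus than in ISC. In that comparison 30.5% of all tested genes were called higher in villus. Ppbp and Treml1 are listed at 0 in wild-type villus, and Ppbp had 0.0113 RPKM in Eed-null villus. The list summed to 14.0 and 16.3 RPKM in Eed-null and wild-type villus, of which Gp1bb, sharing a locus entry with another gene, gave 12.2 and 15.2 RPKM.

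Nerve cells express Dclk1, and germinal centre B cells Rgs13. The 12 nerve or glia genes summed to 0.769 RPKM in wild-type villus and 1.73 RPKM in ISC, against 4.04 and 0.591 RPKM of Dclk1 alone. In the second table they summed to 1.51 RPKM in Eed-null villus versus 0.662 RPKM in its wild-type control, with 1 gene tested and not called. The 10 B cell genes summed to 0.398 RPKM in wild-type villus and 1.21 RPKM in ISC, against 13.6 and 1.69 RPKM of Rgs13. None of the B cell genes was tested between the villus groups, where they summed to 0.469 RPKM in Eed-null villus versus 0.343 RPKM in its wild-type control. Pax5 is listed at 0 in wild-type villus. The part of nerve cells in the values of Dclk1, and of B cells in those of Rgs13, was not tested, and sums of other genes do not measure it. Of 9 matched myeloid genes, 5 were tested between villus and ISC. Of these, 1 was called higher in villus (Tyrobp) and 1 higher in ISC (Cd68), against 30.5% and 32.3% of all tested genes. In Eed-null villus 6 were tested and none was called, against 11.4%, and the 9 summed to 30.9 against 22.2 RPKM.

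Marker lists of other epithelial lineages were read in the same way in Eed-null villus. Of 19 tested enteroendocrine genes 5 were called higher and 1 lower, against 7.9% and 3.46% of all tested genes, among them the hormone Gip at 384 against 188 RPKM. Of 14 tested enterocyte genes 2 were called lower and none higher, and of 9 Paneth cell genes 1 was called higher (Ang4, which is also in the goblet list). The goblet cell list, given above, had 7 of 12 genes called higher. The 8 tuft markers had no call, against 11.4% of all tested genes called in either direction. With 8 genes, a count of 0 is close to that share. A difference between lineages was not tested.

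Likeness of pattern was measured as the distance, in log2 units, between 2 ratios of a gene (villus over ISC and Eed-null over wild-type villus) and the median of the 8 markers, which lay at 2.36 and 0.25. Of 8489 genes that both tables test, with at least 1 RPKM in wild-type villus, the nearest were Bcl2l1, Snx25, Igsf5, Glt28d2, 2010107G12Rik, Pik3cg, Wsb2, Frmd8, 4933426M11Rik and Ugcg. Their distances ran from 0.00317 to 0.0578. Snx25 had 38.8 RPKM in wild-type villus and Wsb2 74.3 RPKM, above all 8 markers, whereas Pik3cg had 1.52 RPKM. Nearest to single markers were Tle1 for Pou2f3, Chmp1a for Trpm5, Tmem38a for Ptgs1, Htatip2 for Avil, AI747448 for Rgs13, Ahcyl2 for Gfi1b and Ehbp1l1 for Il25. Siglec5, of the tuft surface list, was the next nearest to Il25. The measure rests on 3 groups that share the wild-type villus libraries, and it says nothing of the cells that express these genes.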

How the data were processed

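RNA of 9 libraries in 3 groups was read as 75 bp single-end reads from TruSeq libraries, per the labels' protocols, which do not mark strand; 14 chromatin and input libraries were left out. Both tables deposited by the authors hold 1 RPKM value per group and the authors' p-value and q-value per gene, per the file headers. The second table names no unit: RPKM was inferred, since its wild-type villus values equal those of the first divided by 1.16193 (range 1.16192 to 1.16194 over 10353 genes). TopHat2 2.0.6, Cufflinks 2.0.1, Bowtie and Cuffdiff and build mm9 are named in the submitters' processing notes without their roles. The depth per library is unknown.

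Folds are ratios of deposited RPKM with no pseudocount, and differences use log2(RPKM + 1). A gene was called where the authors tested it (status OK) and q was at or below 0.05. A listed 0 can be a failed estimate, so no fold is given against it. Implied intervals divide the log2 ratio by the normal quantile of p. Scripts (Python 3.11.15, pandas 2.3.3, scipy 1.17.1) were tested on simulated data. The 1 entry naming no gene was left out.

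The members, gene lists and tests were chosen with earlier results of these data known. All members are named. Of each wider list up to 4 called genes with the largest difference per comparison were eligible for naming, as were, of other cell types, the 2 genes highest in wild-type villus. Other genes (Retnlb, Muc2, Gsdmc2, Gsdmc3, Gsdmc4, Gata2, Gata3, Tpsb2, Mcpt2, Mcpt4, Cpa3, Hdc, Ms4a2, Fcer1a, Cd3d, Cd3e, Cd3g, Cd8a, Itgae, Cd68, Lgr5, Alpi and genes listed at 0) were named after their values were seen. Some genes eligible for naming are not reported here. The 3 libraries of a group are called biological replicates in the labels.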

Additional observations from a re-analysis of the deposited data

How the results depend on the processing

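The 7 markers called higher in villus than in ISC became 6 at q of 0.01 (without Pou2f3) or with 1 RPKM required in a group (without Il25), and 8 at q of 0.1 (with Gfi1b). The count of 0 in Eed-null villus held at q of 0.1. It was 1 (Ptgs1, higher) at an unadjusted p under 0.05, an alternative chosen after seeing the data. It could not change at q of 0.01, with 1 RPKM or 2-fold required, or without shared loci, since these settings only remove calls. The wider tuft genes called in Eed-null villus, 9 (7 higher, 2 lower), were 5 at q of 0.01 (4 higher, 1 lower), 17 at an unadjusted p under 0.05 (13 higher, 4 lower), and 6 with 2-fold required, of which 1 lower; the stricter settings can only remove calls. The median difference of the markers between villus and ISC moved from 1.48 to 2.24 with a pseudocount of 0.1 RPKM and to 1.46 when recentred on the median gene. In Eed-null villus it moved from 0.16 to 0.24 and 0.25 under the same alternatives. No direction of a marker changed under either. No paired analysis was possible because the tables hold 1 value per group, and for the same reason no library could be left out. Il25 and Gfi1b, at under 1 RPKM in all groups, had the widest implied intervals.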
